A study of Homo sapiens with 13 samples.

Results

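The 42 genes described here carry glucose into the cell, break it down to lactate, or belong to the response of cells to low oxygen. They are a list of named genes, and the rule that lists them uses no measured value. The list was, however, chosen with earlier results of these data known. The list holds 16 enzymes from hexokinase to lactate dehydrogenase, 3 transporters, 3 switches of flux, 2 carbonic anhydrases, 6 parts of the oxygen sensor and 12 genes known to be induced by hypoxia. All 42 were present in each of the 3 deposited count tables, which hold 39735, 59653 and 17974 named genes.

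The study asked how a gene unit on chromosome 17 acts in A549, a human lung adenocarcinoma line. It encodes 2 proteins, PRR11 and SKA2, and 2 microRNAs. Poly(A) RNA was sequenced from 13 libraries of A549 cells, all grown in DMEM/F12 with 10% serum at 37 °C and 5% CO2, with no change of oxygen named in the labels. Since every group was sequenced as 1 library, differences between a pair of libraries lack a replicate check and were given no p-value. The p-values below belong to label effects fitted over 4 libraries. In bulk RNA, fewer cells of a kind and less RNA per cell cannot be told apart.

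The groups form 4 sets. In the first, a stable line with a guide that represses the promoter shared by PRR11 and SKA2 (CRISPRi_PRR11+SKA2 promoter-sgRNA#1) is set against CRISPRi_Mock sgRNA. In the second, lentiviral lines driven by the CMV promoter carry PRR11 (LV-PRR11), SKA2 (LV-SKA2) or the pair (LV-P+S), and all 3 share the control LV-vector-PS. The next set repeats this layout with miR-301a (LV-miR301a), miR-454 (LV-miR454) or the pair (LV-3+4), sharing LV-vector-34. In the last set, the precursor of miR-301a (CRISPRd_miR301a-#2) or of miR-454 (CRISPRd_miR454-#1) was knocked out, and CRISPRd_Control serves both. The labels do not say whether a line is 1 clone.

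In glycolysis, glucose enters through transporters of the SLC2A family, is split by a chain of enzymes to pyruvate, and is reduced to lactate, which leaves through monocarboxylate transporters such as SLC16A3. Tumour cells run this chain even where oxygen is present. The hypoxia-inducible factors (HIF) are pairs of an oxygen-labile alpha subunit (HIF1A or EPAS1) and ARNT. In the presence of oxygen, prolyl hydroxylases (EGLN1, EGLN3) mark the alpha subunit for VHL, which sends it to destruction, so HIF1A activity is set mainly at the level of the protein, which was not measured here. HIF binds a short word in the DNA of its targets, whose core is ACGTG or GCGTG.

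That core was searched on both strands in the RefSeq promoters (250 bases before to 50 after the start, GRCh38.p14), with overlapping matches counted as 1 site. CACGTG, which other factors also bind, holds ACGTG on both strands. Of the 42 genes, 37 had a promoter in the table, and 26 of these (70.3%) held at least 1 site, against 48.4% of all 27305 promoters. ACGTG alone was in 40.5% of the matched promoters and in 21.6% of all. CACGTG was in 5 of them and in 7.43% of all. Those of 4 genes are printed because their genes span the behaviours seen in the libraries: CA9 and ALDOC were among the genes with the widest gap between CRISPRd_Control and the knockouts, CA12 was higher in the knockouts whichever control was used, and LDHA was not called in any pair of libraries. Capitals mark the sites.
CA9, chr9:35673678-35673977, plus strand: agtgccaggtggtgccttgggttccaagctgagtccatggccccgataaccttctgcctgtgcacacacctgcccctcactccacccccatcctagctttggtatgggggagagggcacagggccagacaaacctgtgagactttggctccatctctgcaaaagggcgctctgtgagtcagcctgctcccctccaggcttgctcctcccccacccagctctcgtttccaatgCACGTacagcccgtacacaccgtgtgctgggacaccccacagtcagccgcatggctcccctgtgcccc
CA12, chr15:63381797-63382096, minus strand: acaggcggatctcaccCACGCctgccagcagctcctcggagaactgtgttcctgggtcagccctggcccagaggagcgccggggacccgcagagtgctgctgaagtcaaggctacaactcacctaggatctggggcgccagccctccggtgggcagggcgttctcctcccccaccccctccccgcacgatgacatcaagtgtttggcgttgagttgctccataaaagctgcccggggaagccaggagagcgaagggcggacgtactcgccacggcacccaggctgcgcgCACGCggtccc
ALDOC, chr17:28576846-28577145, minus strand: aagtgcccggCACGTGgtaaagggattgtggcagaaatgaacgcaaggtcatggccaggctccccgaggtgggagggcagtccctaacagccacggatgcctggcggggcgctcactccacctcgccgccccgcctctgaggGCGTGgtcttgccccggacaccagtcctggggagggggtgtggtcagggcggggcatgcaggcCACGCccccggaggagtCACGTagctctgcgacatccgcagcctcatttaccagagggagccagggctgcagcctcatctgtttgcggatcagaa
LDHA, chr11:18394313-18394612, plus strand: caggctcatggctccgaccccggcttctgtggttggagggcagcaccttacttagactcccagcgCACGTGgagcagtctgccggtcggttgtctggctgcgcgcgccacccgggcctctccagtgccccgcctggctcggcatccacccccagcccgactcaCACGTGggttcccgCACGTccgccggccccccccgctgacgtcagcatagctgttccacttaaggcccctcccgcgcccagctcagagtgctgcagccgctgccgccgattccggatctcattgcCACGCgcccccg
CA9 holds 1 site, CA12 holds 2, and ALDOC and LDHA hold 4 each. So a promoter with 4 sites was found both for a gene called in the knockouts and for one without such a call, and a match is a description of the letters only.

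The microRNAs of the unit share their seed, bases 2 to 8, by which a microRNA pairs with its targets. Both mature strands lie on the minus strand of chromosome 17 in GRCh38.p14, and the seed is in capitals.
miR-301a-3p, chr17:59151149-59151171: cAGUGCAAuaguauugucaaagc
miR-454-3p, chr17:59137787-59137809: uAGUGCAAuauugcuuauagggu
The matching word TTGCACT was found in the 3′ UTR of 4 of the 42 genes (9.52%), against 14.0% of 19120 genes with an annotated 3′ UTR (GENCODE 29). These genes hold a full match to the seed, which either microRNA could pair with. Shorter matches and sites outside the 3′ UTR were not searched. The words are in capitals, with their surroundings.
SLC2A1: tctagtctcctTTGCACTgagggccacac
SLC2A3: agatcgcatcaTTGCACTctagcctgggc
PFKFB3: gctgctggcttTTGCACTtttttgatggc
PDK1, first site: tgatcactttcTTGCACTgtgatgttttt
PDK1, second site: aattagggggcTTGCACTaaatttcacta
Among these 4 genes, SLC2A3 was called higher in both knockouts against CRISPRd_Control and PDK1 in the miR-454 knockout, while PFKFB3 went the other way without a call, at -0.86 and -0.92 (log2 ratio). SLC2A1 was called higher in LV-miR454, the library in which miR-454 was to be raised. In the miR-301a and miR-454 knockouts SLC2A1 was not called against CRISPRd_Control, at 81.4 and 115 against 118 CPM. SLC2A3 stood at 234, 124 and 227 CPM in LV-miR301a, LV-miR454 and LV-3+4, against 200 CPM in LV-vector-34. The calls of SLC2A3 and PDK1 in the miR-454 knockout did not hold against LV-vector-34.

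Libraries held 18672601 to 21811946 counts, so counting error is small for most of these genes. Values are CPM, counts scaled to a common library size within a table. Genes counted as measured in a comparison if the 2 libraries together had 20 counts or more and one of them reached 1 CPM. A measured gene was called higher or lower when 0.5 was added to both CPM values and their log2 ratio reached 1 or -1, a 2-fold change, and the exact 95% counting interval of the ratio excluded equality. Intervals cover counting error only. Of the 42 genes, 40 were measured in all 9 comparisons with a treated library's own control. Over these 9 comparisons, 17 were called at least once, 25 never, and 4 in both directions. The 3 further comparisons, with or between other controls, are given with the knockouts.

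The targets were read first. PRR11 fell to 0.643% and SKA2 to 0.292% of the mock library under CRISPRi. In the library labelled LV-PRR11, PRR11 stood at 109% of LV-vector-PS (interval 103 to 116). In the libraries labelled LV-SKA2 and LV-P+S, SKA2 stood at 84.4% (77.9 to 91.4) and 88.8% (82.0 to 96.0) of the vector, which goes against those labels. In the miR-301a and miR-454 knockouts, PRR11 stood at 72.4% (68.1 to 76.9) and 68.5% (64.4 to 72.9) of CRISPRd_Control. SKA2 stood at 99.1% (91.5 to 107.5) and 70.0% (64.0 to 76.5), listed likewise. The part of PRR11 and SKA2 in the knockout results was not tested. Counts of poly(A) RNA do not measure a mature microRNA. The summed level of 10 markers of A549 and simple epithelium was 25441 to 40300 CPM, and the T cell marker CD3E was at 0 in every library whose table lists it.

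**Figure D1:**
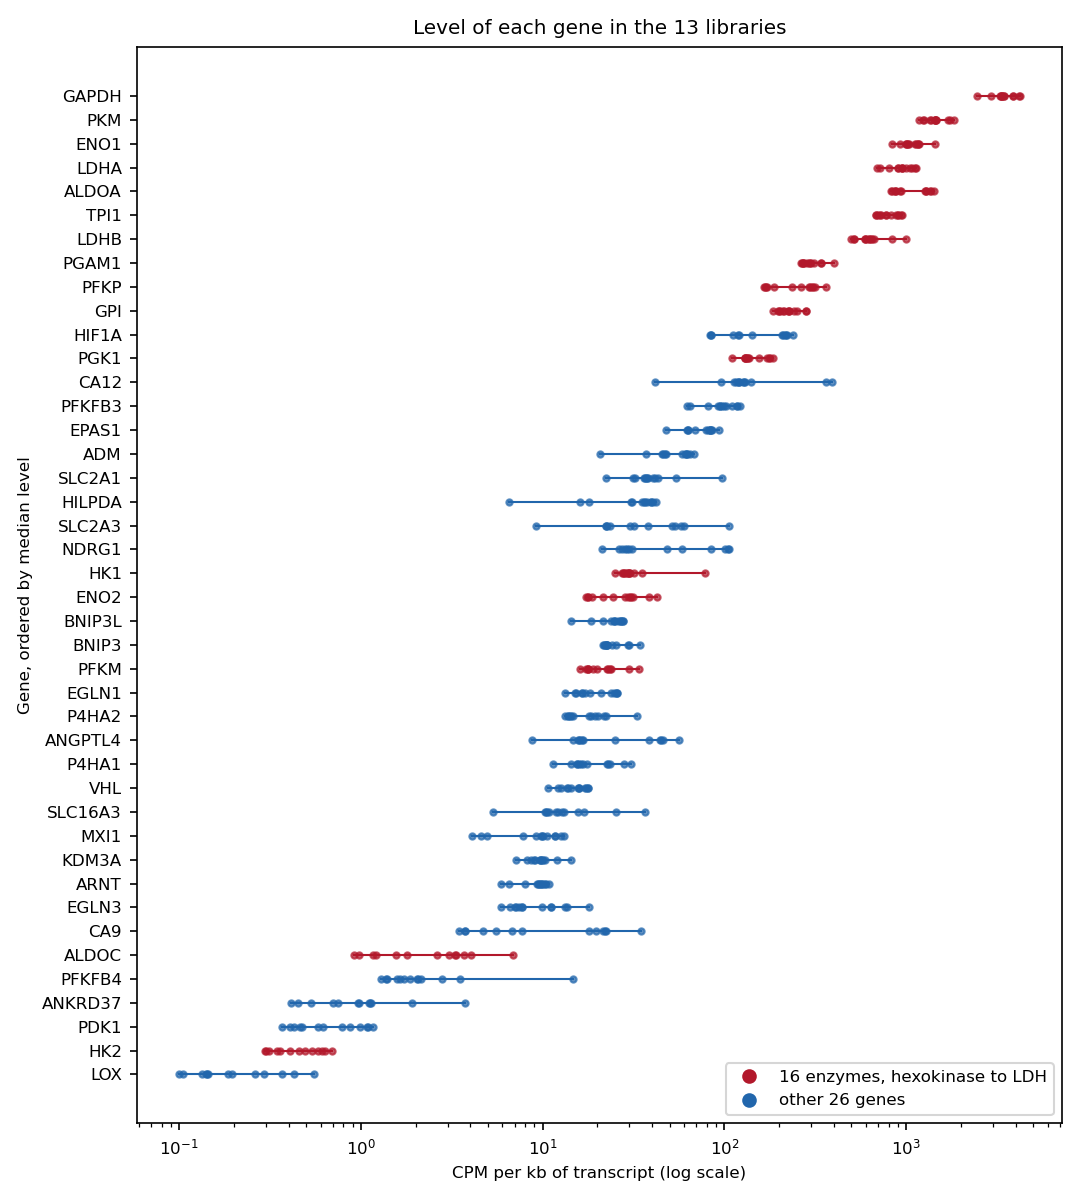
Level of each of the 42 genes in the 13 libraries, in CPM per kb of transcript on a log axis, 1 point per library, with a line from the lowest to the highest value. Red marks the 16 enzymes, which fill the first 10 places, and ANKRD37 has no point for LV-vector-34, where it had 0 counts.

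Levels between genes were compared per kb of transcript. The 10 highest were all enzymes, led by GAPDH, which oxidises glyceraldehyde phosphate, at a median of 3387 CPM per kb and a range of 2455 to 4226. The lowest was LOX, the lysyl oxidase that crosslinks collagen, at a median of 0.186 CPM per kb. In the plot of levels per kb, short lines are found both among the enzymes and among the other genes. Over the 13 libraries, 9 of the 16 enzymes varied by less than 2-fold, as did 7 of the other 26 genes. Of the 42 genes, 11 varied more than 4-fold, and the enzyme ALDOC is among them, at 7.44-fold. Summed over the 16 enzymes, the level lay between 19420 CPM in CRISPRd_Control and 25227 CPM in the library labelled LV-miR454. The tables were scaled separately and list different genes, so levels across tables also carry that difference.

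Hexokinases and aldolases kept their order in every library. HK1, the ubiquitous hexokinase, exceeded HK2 by 40.8-fold in LV-3+4 and by 123-fold in the miR-454 knockout, per kb. ALDOA exceeded ALDOC, the brain-type aldolase, by 189-fold in the miR-301a knockout and by 957-fold in the library labelled LV-SKA2. The transporters did not keep theirs: SLC2A3 stood at 0.285 of SLC2A1 per kb in CRISPRd_Control and at 4.80 times SLC2A1 in the miR-301a knockout.

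**Figure D2:**
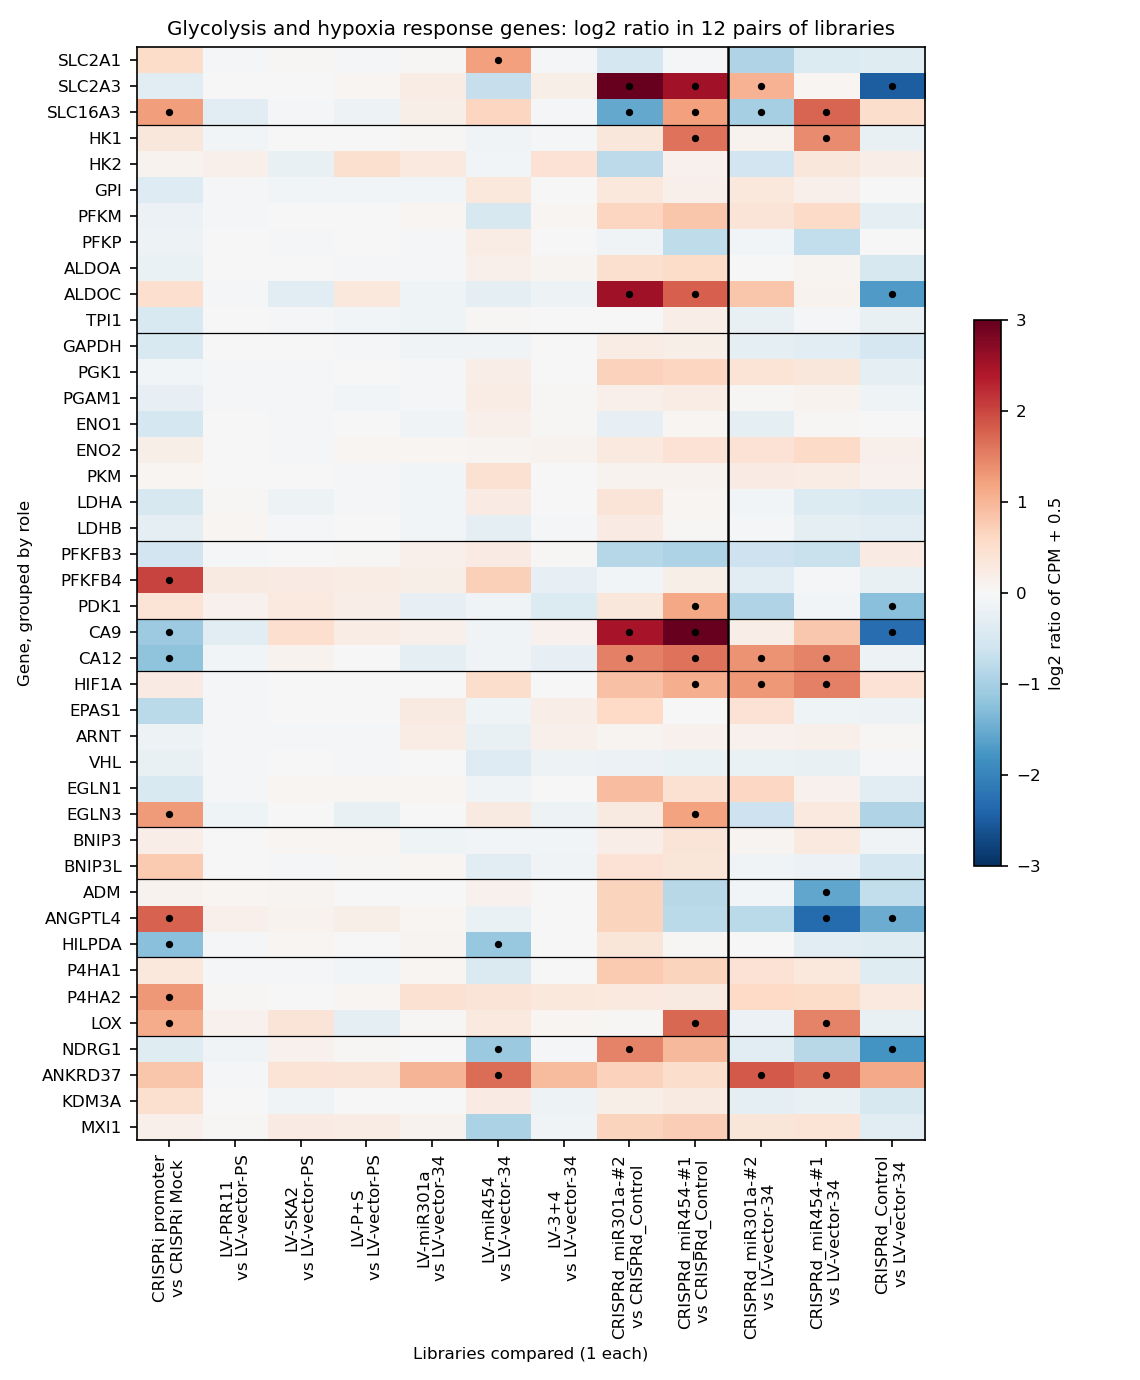
Log2 ratio of CPM plus 0.5 for the 42 genes (rows, grouped by role) in 12 pairs of libraries (columns), with the 3 comparisons against or between other controls to the right of the heavy line. Dots mark called genes, which sit mostly in the CRISPRi and knockout columns and are absent from 5 lentiviral columns.

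The library with the promoter guide differed from the mock library in hypoxia genes in both directions, and none of the enzymes was called. Under CRISPRi, 6 of 42 measured genes were called higher, where 9.43% of all 15003 measured genes were, and 3 were called lower, where 5.97% were. The median log2 ratio was -0.01, beside -0.04 over all measured genes. So neither the counts nor the median set these genes far from the rest of the transcriptome.

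The steepest rise was in PFKFB4, an enzyme that makes the activator of phosphofructokinase. It stood at 52.5 CPM with the promoter guide and 12.6 CPM with the mock guide, a 4.18-fold difference (3.65 to 4.80). Its paralog PFKFB3 went the other way without a call, at 364 against 545 CPM. ANGPTL4, a secreted inhibitor of lipoprotein lipase, rose from 30.3 to 105 CPM, 3.46-fold (3.17 to 3.79). SLC16A3, the lactate exporter, rose from 50.9 to 122 CPM, 2.40-fold (2.23 to 2.58). EGLN3, a prolyl hydroxylase that is itself induced by HIF, rose from 19.96 to 48.8 CPM, 2.45-fold (2.18 to 2.75). The other oxygen sensor EGLN1 was not called, at 107 against 148 CPM, so EGLN3 passed EGLN1 per kb in this library alone among the 13.

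Among collagen modifiers, P4HA2, a collagen prolyl hydroxylase, rose from 44.7 to 111 CPM, 2.49-fold (2.31 to 2.69). LOX rose from 15 to 48 counts, 2.98-fold (1.64 to 5.73), and lost its call with a pseudocount of 2. P4HA1 was not called, at 40.6 against 32.2 CPM. Beside this, the summed level of 6 fibroblast markers was 30.6 CPM with the promoter guide and 12.02 CPM with the mock guide. Of these, 3 were measured and 2 called higher, COL1A1 at 25.9 against 9.10 CPM and LUM at 3.58 against 0.828 CPM. The third, COL3A1, went the other way without a call, at 0.862 against 1.90 CPM. COL1A2 and DCN were at or near 0 in both. The part of these markers in the result was not tested.

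The 3 genes called lower include both carbonic anhydrases. CA12, a carbonic anhydrase at the cell surface, stood at 266 CPM against 618 CPM in the mock library, 2.32-fold lower (2.25 to 2.40). CA9, the carbonic anhydrase that is used as a marker of hypoxia, stood at 5.58 against 12.5 CPM, and lost its call with a pseudocount of 2. HILPDA, which coats lipid droplets, stood at 8.84 against 21.6 CPM. Thus CA9 and HILPDA lay on the opposite side from ANGPTL4 and EGLN3, though all 4 are known HIF targets.

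**Figure D3:**
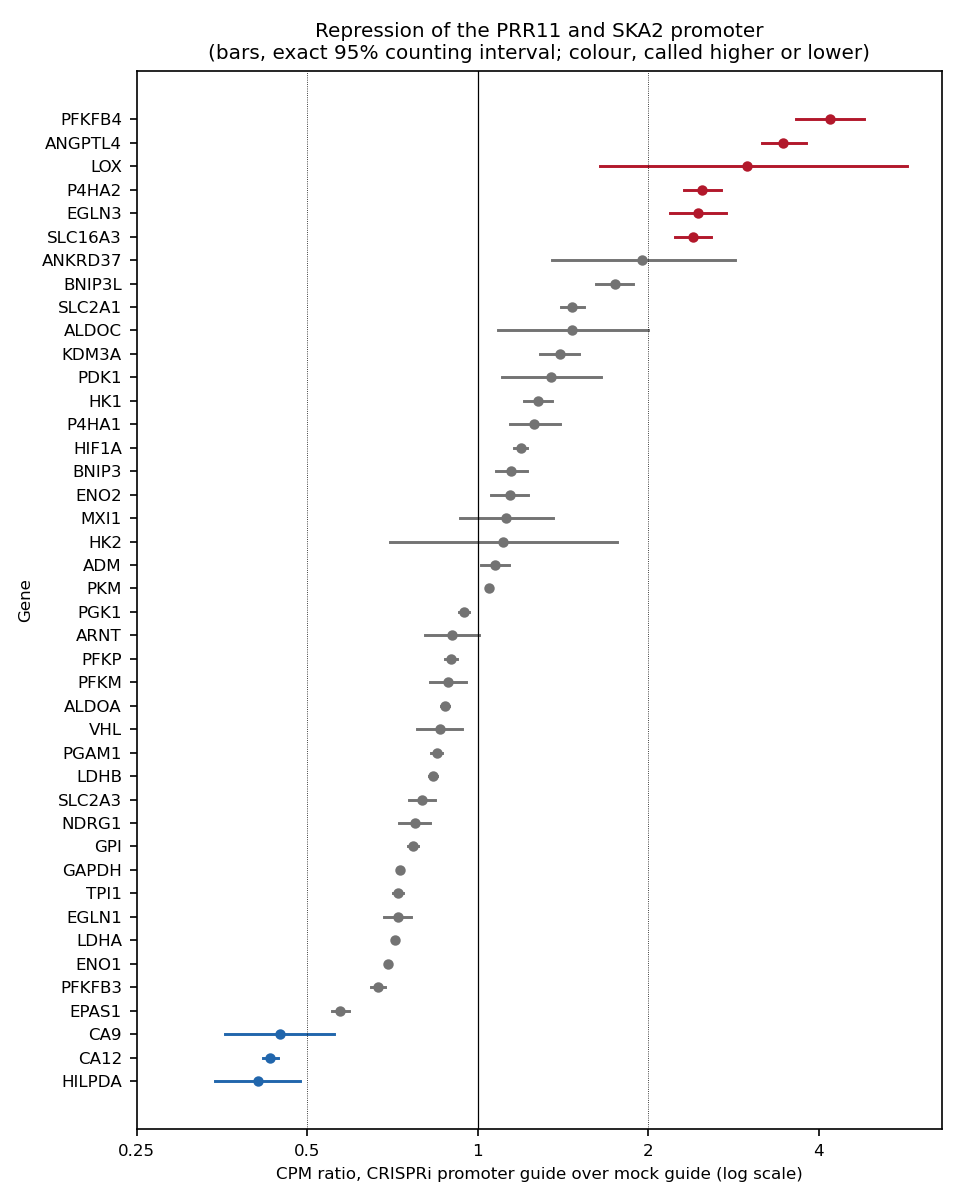
Ratio of CPM with the promoter guide over the mock guide for the 42 genes, on a log axis, with exact 95% counting intervals. Red and blue mark the 6 genes called higher and the 3 called lower, and dotted lines mark a 2-fold change.

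None of the 16 enzymes was called, and their sum was 20437 CPM against 24919 CPM in the mock library. ENO1 stood at 2341 against 3368 CPM and GAPDH at 4603 against 6301 CPM, while HK1 stood at 127 against 99.4 CPM and PKM at 4965 against 4749 CPM. HIF1A was not called, at 557 against 468 CPM, nor was EPAS1, at 248 against 433 CPM.

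Of 38 other HIF targets, 10 were called higher, where 9.43% of all measured genes were, and 3 lower, where 5.97% were. The same shares apply to the lists that follow in this comparison. The HIF targets called higher include CXCR4, a chemokine receptor (19.7 against 1.12 CPM), STC1, a secreted glycoprotein (56.7 against 12.02 CPM), and PDGFB, a growth factor (16.4 against 2.82 CPM). ZNF395 was lower, at 4.76 against 15.8 CPM. Of 25 genes of pyruvate entry and the TCA cycle, 0 were called higher and 2 lower: PDK4, a kinase that switches off pyruvate dehydrogenase, and PC, pyruvate carboxylase. In the pentose phosphate pathway, 1 of 8 was called, TKT at 890 against 1810 CPM. Of 29 other glycolysis and glycogen genes, 20 were measured, and PPP1R3C, which targets a phosphatase to glycogen, was higher (42.2 against 11.2 CPM) and GPD2 lower (35.9 against 73.3 CPM).

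The libraries labelled LV-PRR11, LV-SKA2 and LV-P+S differed little from LV-vector-PS in these genes. None was called in either direction, and the rule called few genes of any kind: 0.179% higher and 0.119% lower for LV-PRR11, 0.141% and 0.111% for LV-SKA2, and 0.134% and 0.127% for LV-P+S. The log2 ratios of the measured members lay between -0.32 and 0.49.

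The 4 libraries form a 2 by 2 layout, so the effect of each label was fitted with both labels as terms (quasi-likelihood test of edgeR, p-values adjusted by Benjamini-Hochberg over all 13331 genes, 1 residual degree of freedom). The spread used by the test starts from how far the 4 libraries depart from a sum of the label effects. For each gene it is drawn towards a trend over all genes, so the p-values also rest on the spread of other genes. This spread may be technical. With the PRR11 label, 1 member passed, where 1.16% of all genes did. SLC16A3 stood at 50.7 and 57.2 CPM in LV-PRR11 and LV-P+S, and at 63.2 and 62.0 CPM in the vector and the library labelled LV-SKA2, an effect of -0.22 on the log2 scale (edgeR adjusted p = 0.00854). Both libraries with the PRR11 label were below both without it, but the share of all genes split in this way was not counted.

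With the SKA2 label, 5 members passed, where 5.90% of all genes did, and the direction is that of libraries whose SKA2 counts go against the label. CA9 stood at 10.96 and 8.95 CPM in the libraries labelled LV-SKA2 and LV-P+S, and at 7.64 and 6.04 CPM in the vector and LV-PRR11, an effect of 0.55 (edgeR adjusted p = 0.00281). LDHA had 2284 and 2422 CPM with the label and 2523 and 2594 CPM without it, an effect of -0.12 (edgeR adjusted p = 0.00245). For CA9 and LDHA, and also for CA12, the libraries with and without the label did not overlap. The share of all genes without overlap was not counted, so this adds nothing to the fit. MXI1, a MYC antagonist, had an effect of 0.23, NDRG1 one of 0.13 and CA12 one of 0.10 (edgeR adjusted p = 0.0316, 0.0465 and 0.0299). By DESeq2, 0 members and 0 of 13331 genes passed for PRR11. For SKA2, 1 member passed among 45 genes, of only 925 to which DESeq2 gave an adjusted p.

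Against LV-vector-34, neither LV-miR301a nor LV-3+4 had a call among 40 measured members. The rule called 0.359% of all genes higher and 0.372% lower for LV-miR301a, and 0.285% and 0.360% for LV-3+4. The library labelled LV-miR454 stood apart from both, though LV-3+4 was to express the same microRNA. It had 2 members called higher, where 2.97% of all genes were, and 2 lower, where 3.42% were, of 41 measured.

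SLC2A1, the basal glucose transporter, stood at 153 CPM in LV-vector-34, 158 in LV-miR301a, 149 in LV-3+4 and 358 in LV-miR454, which is 2.35-fold above the vector (2.25 to 2.45). Only that library is high. ANKRD37, an ankyrin repeat protein induced by HIF, had 21 counts against 0, at least 7.07-fold higher when the vector is taken at 3 counts, but it also had 10 and 9 counts in LV-miR301a and LV-3+4, and its call was lost with a pseudocount of 2.

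NDRG1, a stress-induced protein of epithelia, stood at 390, 395 and 378 CPM in LV-vector-34, LV-miR301a and LV-3+4, and at 182 CPM in LV-miR454, 2.15-fold lower (2.06 to 2.24). HILPDA stood at 53.5, 56.4 and 54.3 CPM in the same 3 libraries and at 24.1 CPM in LV-miR454, 2.22-fold lower (1.98 to 2.48). In both genes, 3 libraries lie together and LV-miR454 lies apart. MXI1 was just outside the rule, at a log2 ratio of -0.96.

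Among 37 measured other HIF targets, 2 were higher and 3 lower in LV-miR454, where 2.97% and 3.42% of all genes were. DDIT4, an inhibitor of mTOR signalling, stood at 115 against 259 CPM, and PDGFB at 26.3 against 5.65 CPM. PDK4 stood at 46.5 against 223 CPM. The sum of the fibroblast markers was 79.0 CPM in LV-miR454, 35.5 CPM in LV-vector-34 and 85.0 CPM in LV-miR301a. Of the 2 measured in LV-miR454, COL1A1 was called higher (75.5 against 25.0 CPM) and COL3A1 lower (3.17 against 9.31 CPM), and their part in the result was not tested. In the additive fit of the microRNA set, no member passed for either label. For the miR301a label, 0 of 14651 genes passed by edgeR (0%), 577 had an unadjusted p under 0.05, and 2 passed by DESeq2. For the miR454 label 0.00683% passed by edgeR.

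Against its own control, the miR-454 knockout had more members called than any other treated library. These were 10, close to the 6 higher and 3 lower under CRISPRi. The table of the knockouts holds a second control, LV-vector-34, and the controls differed from each other in these genes. Against CRISPRd_Control, 5 of 41 measured members were called higher in the miR-301a knockout, where 6.72% of all genes were, and 1 lower, where 4.15% were. In the miR-454 knockout, 10 of 42 were called higher, where 6.61% of all genes were, and 0 lower, where 3.10% were. Both comparisons share CRISPRd_Control. The median log2 ratios were 0.34 and 0.32, beside -0.01 over all genes in each.

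Against LV-vector-34, 4 members were called higher in the miR-301a knockout (5.20% of all genes) and 1 lower (3.64%). In the miR-454 knockout, 6 were higher (5.89%) and 2 lower (3.38%). The median log2 ratios were then 0.00 and 0.10. Between the controls, CRISPRd_Control had 0 members higher than LV-vector-34, where 1.73% of all genes were, and 6 of 40 lower, where 2.62% were. The median was -0.28. Some calls against CRISPRd_Control were thus of genes in which the controls themselves differed: of the 5 higher in the miR-301a knockout, 3 were called against that control only, and all 3 were also called lower in CRISPRd_Control than in LV-vector-34. In the miR-454 knockout, 5 of 10 were called against that control only, and 4 of the 5 were lower in CRISPRd_Control than in LV-vector-34.

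**Figure D4:**
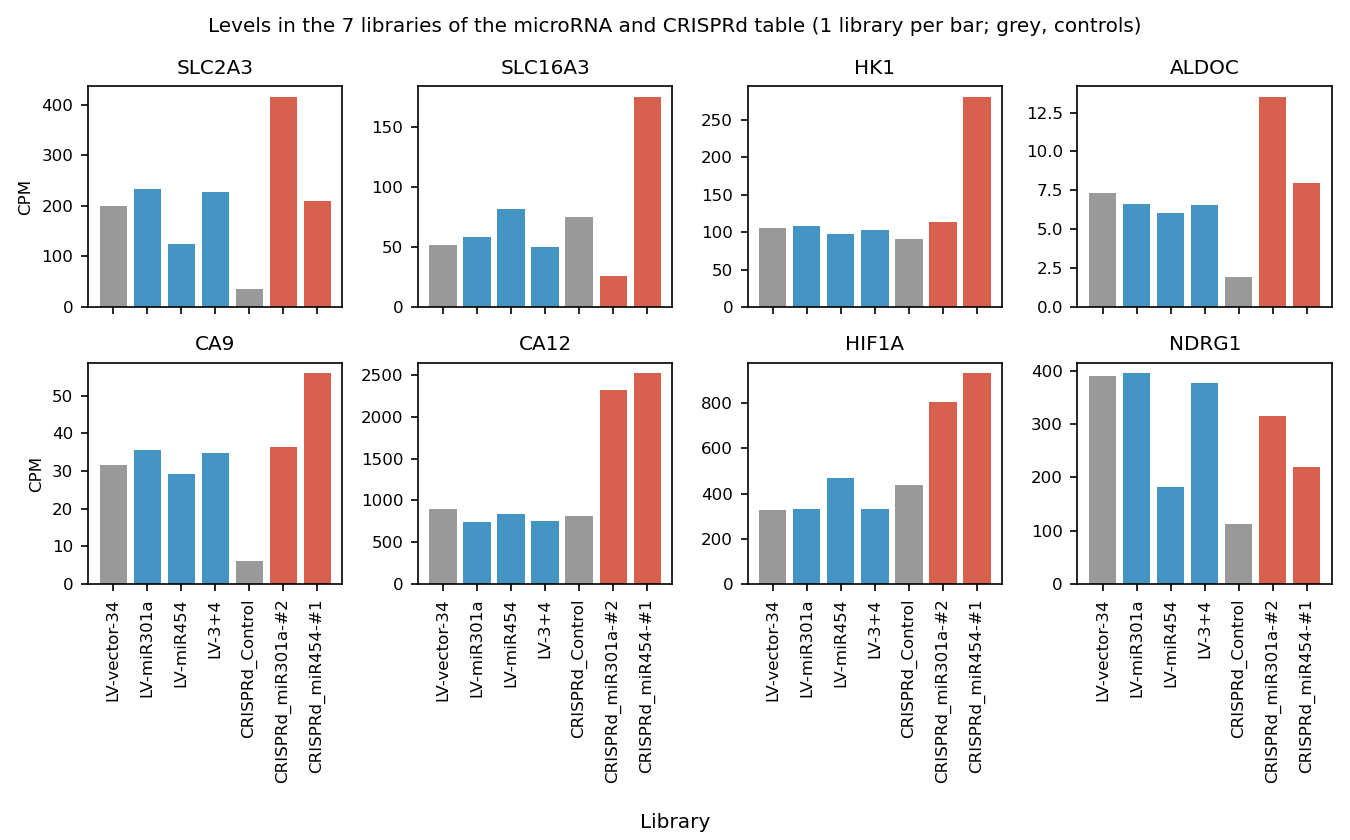
CPM of 8 genes in the 7 libraries of the microRNA and CRISPRd table, 1 library per bar, with controls in grey, lentiviral microRNA libraries in blue and knockouts in red. CA12 and HIF1A are highest in both knockouts, while SLC2A3, ALDOC, CA9 and NDRG1 are lowest in CRISPRd_Control.

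The first kind are genes in which CRISPRd_Control was lower than LV-vector-34. The widest gap was in SLC2A3, the high-affinity glucose transporter (chr12:7919230-7936275, minus strand). It stood at 36.0 CPM in CRISPRd_Control, 416 in the miR-301a knockout and 209 in the miR-454 knockout, 11.6-fold (10.7 to 12.5) and 5.81-fold (5.36 to 6.30) above the control. LV-vector-34 stood at 200 CPM, beside the miR-454 knockout, so that the call in the miR-301a knockout held with both controls and that in the miR-454 knockout did not.

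CA9 stood at 6.08 CPM in CRISPRd_Control, 36.3 and 55.9 CPM in the knockouts, and 31.7 CPM in LV-vector-34. ALDOC had 1.93, 13.5, 7.96 and 7.33 CPM, listed likewise. NDRG1 stood at 112, 316, 220 and 390 CPM and was called in the miR-301a knockout. PDK1, the kinase that restrains pyruvate dehydrogenase under hypoxia, stood at 6.74, 8.73, 15.6 and 16.6 CPM and was called in the miR-454 knockout. In these 4 genes, LV-vector-34 lies close to or above at least 1 knockout, and CRISPRd_Control is the lowest of the 4 libraries. In the other tables, which were scaled separately, the controls LV-vector-PS and CRISPRi_Mock sgRNA stood nearer to CRISPRd_Control than to LV-vector-34 in all 4: NDRG1 at 107 and 102 CPM, CA9 at 7.64 and 12.5 CPM, ALDOC at 2.39 and 3.55 CPM, and PDK1 at 5.25 and 8.28 CPM. For SLC2A3 they stood between, at 87.6 and 148 CPM.

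Genes of the second kind differed from both controls. CA12 stood at 809 CPM in CRISPRd_Control and 902 CPM in LV-vector-34, against 2316 CPM in the miR-301a knockout and 2517 CPM in the miR-454 knockout, 2.86-fold (2.81 to 2.92) and 3.11-fold (3.06 to 3.17) above CRISPRd_Control. The 3 lentiviral microRNA libraries lay at 740 to 833 CPM, so the knockouts stand apart from the other 5 libraries of the table. HIF1A stood at 439 and 326 CPM in the controls and at 808 and 932 CPM in the knockouts. Its 2.12-fold difference (2.07 to 2.18) in the miR-454 knockout was called with both controls, though with total counts in place of TMM it just missed the rule against CRISPRd_Control, and in the miR-301a knockout with LV-vector-34 alone, at a log2 ratio of 1.31.

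HK1 stood at 90.4, 114, 281 and 106 CPM in CRISPRd_Control, the miR-301a knockout, the miR-454 knockout and LV-vector-34, so that only the miR-454 knockout is high, 3.11-fold (2.95 to 3.29) above CRISPRd_Control. LOX was high in that library too, with 51 counts against 10 in CRISPRd_Control and 13 in LV-vector-34, a call that was lost with a pseudocount of 2. EGLN3 stood at 15.9, 19.2, 37.1 and 30.1 CPM and was called in the miR-454 knockout against CRISPRd_Control only.

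SLC16A3 went in opposite directions in the knockouts. It stood at 75.1 CPM in CRISPRd_Control, 52.1 CPM in LV-vector-34, 25.8 CPM in the miR-301a knockout and 176 CPM in the miR-454 knockout. The miR-301a knockout was called lower with both controls, at a log2 ratio of -1.53 and, just inside the rule, -1.002, and the miR-454 knockout was called higher with both, at 1.22 and 1.75. The call at -1.002 was lost with DESeq2 size factors. It is the sole member called in opposite directions in the knockouts.

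ADM, a vasodilator peptide, and ANGPTL4 were lower in the miR-454 knockout than in LV-vector-34, at 39.0 against 116 CPM and 16.5 against 83.1 CPM. Against CRISPRd_Control (69.7 and 29.2 CPM) neither was called. ANKRD37 had 24 and 20 counts in the knockouts and 0 in LV-vector-34, at least 8.24-fold and 6.99-fold higher, but 12 counts in CRISPRd_Control, and was not called against it.

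Among other genes of the pathway, the calls against both controls were strongest for genes outside the glycolytic chain. PDK4 stood at 139 CPM in CRISPRd_Control and 223 CPM in LV-vector-34, and at 1117 and 1676 CPM in the knockouts. TXNIP, a thioredoxin-interacting protein that restrains glucose uptake, had 5 and 7 counts in the controls and 217 and 341 counts in the knockouts. ARRDC4, its relative, stood at 1.27 and 2.35 CPM in the controls and 5.39 and 10.2 CPM in the knockouts. TXNIP and ARRDC4 belong to a list of 5 genes of glucose sensing by MondoA. Of these 5, 3 were called higher in each knockout against CRISPRd_Control, where 6.72% and 6.61% of all genes were. Against LV-vector-34, 2 and 3 were called higher, where 5.20% and 5.89% were. The third against CRISPRd_Control was MLXIPL, at 7.45 CPM in that control and 16.3 and 25.0 CPM in the knockouts.

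Of 29 other glycolysis and glycogen genes, 22 were measured, with 3 and 4 called higher in the miR-301a and miR-454 knockouts against CRISPRd_Control, and 1 and 3 against LV-vector-34, none lower. Of all genes, 6.72% and 6.61% were called higher against CRISPRd_Control, and 5.20% and 5.89% against LV-vector-34. LDHD and GPD1, higher in both knockouts against CRISPRd_Control, were themselves called lower in it than in LV-vector-34. SLC16A7, a pyruvate and lactate carrier, stood at 1.82 CPM in CRISPRd_Control, 0.994 CPM in LV-vector-34, and 5.87 and 14.3 CPM in the knockouts. Of 37 measured other HIF targets, 5 were higher and 4 lower in the miR-301a knockout against CRISPRd_Control, and 2 and 3 in the miR-454 knockout. Against LV-vector-34, these counts were 2 and 3, and 2 and 1. Of all genes, 4.15% and 3.10% were called lower against CRISPRd_Control, and 3.64% and 3.38% against LV-vector-34. LOXL2, a lysyl oxidase relative, stood at 326, 130 and 146 CPM in CRISPRd_Control and the knockouts. Of 13 other oxygen-sensing genes, 12 were measured, and ARNT2 alone was called, lower in the miR-301a knockout against CRISPRd_Control. None was called in either knockout against LV-vector-34.

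The marker sum of A549 and simple epithelium moved with these groups, at 25441 CPM in CRISPRd_Control, 30395 CPM in LV-vector-34 and 36390 and 39408 CPM in the knockouts. Its part in the result was not tested. Of its 10 markers, 3 were called higher and 0 lower in each knockout against CRISPRd_Control. Of all genes, 6.72% and 6.61% were higher there. Against LV-vector-34, 2 markers were higher in the miR-301a knockout and 1 in the miR-454 knockout, where 5.20% and 5.89% of all genes were. Between the controls, 1 marker was called lower in CRISPRd_Control. FGB stood at 10.4 CPM in CRISPRd_Control, 57.2 in LV-vector-34, 994 in the miR-301a knockout and 70.5 in the miR-454 knockout. KRT7 went the other way, at 3535, 3181, 2029 and 2486 CPM, listed likewise. Among the immune markers, PTPRC was at 4.04 CPM in the miR-301a knockout, with CD3E at 0.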

How the data were processed

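Poly(A) RNA of A549 cells was measured in 13 libraries, 1 per group. Bowtie2 2.3.5.1, RSEM 1.3.3 and the build GRCh38.p13 are named in the submitters' processing notes; annotation release and strandedness are not given in the sources, so overlapping and antisense genes may share reads. Expected counts, which are estimates and were not normalised, were deposited by the authors in 3 tables and rounded here. Entries with no gene name, 181 in the CRISPRi table (0.355% and 0.431% of counts), were left out, and numbered copies of a symbol were summed, which among the members touches GPI only. All columns matched a sample, and 0 were unmapped.

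Library sizes were scaled per table with edgeR 4.0.16 (TMM) under R 4.3.3, and log2 ratios used CPM plus 0.5. Intervals are exact Clopper-Pearson 95% intervals of the ratio. A library at 0 was taken at 3 counts. Additive fits are described with their results, with DESeq2 1.42.0 as an alternative, and their BCV was 0.0231 (PRR11 and SKA2) and 0.165 (microRNAs). On simulated data, where 13386 to 14836 genes were measured in each of the 12 comparisons, the size rule recovered 98 to 100% of genes changed 2.5-fold and made 0 to 8 false calls. The simulated counts varied by counting error only, and the changed genes had at least 5 CPM. These false calls therefore leave out differences between cultures. Between CRISPRd_Control and LV-vector-34, the rule called 257 of 14849 genes higher and 389 lower. In simulated data of 14651 genes, the additive fit of the microRNA set found 66% (miR301a) and 71% (miR454) of 2-fold changes and 5% and 9% of 1.5-fold changes. Python 3.11.15, numpy 2.4.6, pandas 2.3.3 and scipy 1.17.1 were used.

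The members and lists were chosen with earlier results of these data known. Named genes were all members, with library values for called ones and their paralogs, up to 4 called genes per other list in each comparison, and the targets; some genes that this covers are not reported here. Other settings tried were total counts, DESeq2 size factors, no filter, 5 CPM, a pseudocount of 2, a size rule of 1.5-fold and copies left out. Annotated positions and UTRs are those of GENCODE 29, promoters and microRNAs from RefSeq.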

Additional observations from a re-analysis of the deposited data

Results flagged for a closer look

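SLC16A3 lay on opposite sides of CRISPRd_Control in the 2 knockouts. It stood at 176 CPM in the miR-454 knockout and 25.8 CPM in the miR-301a knockout, a 6.82-fold difference (counting interval 6.20 to 7.53), with the control between them at 75.1 CPM. Each knockout is 1 library, and the difference was not tested.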

How the results depend on the processing

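No paired analysis was possible because each group is 1 library. Of 48 calls, none reversed under any setting: 47 held with total counts and 47 with DESeq2 size factors, 42 at 5 CPM, and 40 with a pseudocount of 2. With total counts, the median of all genes in the miR-454 knockout moved to -0.12 against CRISPRd_Control and -0.11 against LV-vector-34; there 1 member was lower against CRISPRd_Control and the members' median was 0.21. Under CRISPRi the members' median was 0.037 with total counts, 0.0135 with DESeq2 size factors and -0.15 at 5 CPM, so its sign is not stable. For the miR-301a knockout against LV-vector-34 it was -0.039 with total counts and -0.0030 with no filter, and 0 members were lower with DESeq2 size factors or a pseudocount of 2, since SLC16A3 lies at the edge of the rule. With no filter, 1 member was higher in LV-miR301a and 1 in CRISPRd_Control against LV-vector-34, and in LV-miR454 1 was higher at 5 CPM or with a pseudocount of 2, without ANKRD37. At 1.5-fold, 4 were higher and 4 lower in LV-miR454 (8.15% and 10.1% of all genes), 15 and 3 in the miR-301a knockout against CRISPRd_Control (13.6% and 10.9%), and 7 and 6 against LV-vector-34 (11.2% and 8.52%). In the miR-454 knockout, 4 were lower against CRISPRd_Control (9.2%) and 5 against LV-vector-34 (8.74%). By DESeq2, the additive fit passed 0 members for PRR11 (0 of 13331 genes) and 1 for SKA2 (45 of 925 genes). Genes with few counts (LOX, ANKRD37, ALDOC, HK2) are limited by depth.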
